A study of Mus musculus with 10 samples.

Results

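RNA of 10 genes known for their roles in the handling of IgG and lipids by macrophages was measured in whole mouse aortae of 2 ages: the activating Fc gamma receptors Fcgr1, Fcgr3 and Fcgr4, the inhibitory receptor Fcgr2b, the adaptors Fcer1g and Tyrobp, the receptor Trem2, and the foam-cell genes Gpnmb, Lgals3 and Cd9. They were chosen by symbol, with earlier results of these data known, and all 10 were found among the 55453 gene symbols of the count table. All 10 were also among the 14614 genes with enough counts to be tested. Bulk RNA came from aortae of 10 male C57BL/6 mice, 5 young mice aged 14.5 weeks and 5 old mice aged 92.5 weeks according to the labels, with 1 library per mouse. No altered allele or treatment is named for either group. The mice were bought from a supplier and perfused with saline before the aorta was taken and cleaned of the surrounding fat. The comparison asks which of these genes differ in RNA level between the young and the old vessel wall.

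Fc gamma receptors bind the constant part of IgG. The activating receptors pass the signal through Fcer1g, the shared gamma chain, whose ITAM (a tyrosine motif) recruits the kinase Syk once it is phosphorylated. Fcgr2b carries the inhibitory counterpart, an ITIM, in its own tail and recruits the lipid phosphatase Inpp5d. Trem2, a receptor for lipids and lipoproteins on macrophages and microglia, has no signalling tail and uses Tyrobp (DAP12), another ITAM adaptor. Lipid-laden macrophages of the arterial wall are known to carry Trem2 together with Gpnmb, Lgals3 and Cd9, of which the last is also made by many other cells.

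All 10 genes are protein coding, and 4 of them lie close together on chromosome 1 of GRCm38: Fcgr2b (170958617 to 170976547, minus strand), Fcgr4 (171018920 to 171029761, plus strand), Fcgr3 (171051174 to 171064935, minus strand) and Fcer1g (171229572 to 171234365, minus strand). Fcgr1 lies on chromosome 3 (96282909 to 96293969), Tyrobp on chromosome 7 (30413760 to 30417585), and Trem2 on chromosome 17 (48346401 to 48354147). Gpnmb (49036546 to 49070929) and Cd9 (125460266 to 125494791) are both on chromosome 6, and Lgals3 is on chromosome 14 (47367751 to 47386160).

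Fcgr2b and Fcgr3 are near-identical over the part that encodes their extracellular domains, and this bears on how their reads can be told apart. The longest run of identical coding sequence was 129 bases, from base 278 to 406 of the 1020 coding bases of Fcgr2b and from base 263 to 391 of the 801 of Fcgr3. It is shown in lower case because every base of it is shared.
Fcgr2b and Fcgr3, shared coding run: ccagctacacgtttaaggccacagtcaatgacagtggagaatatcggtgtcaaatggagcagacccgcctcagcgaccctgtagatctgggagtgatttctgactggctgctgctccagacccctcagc
Of the 50-base windows of Fcgr3, 9.58% also occurred in Fcgr2b, and 2.92% of those of Fcgr2b occurred in Fcgr3. These shared windows are more than the printed run can hold. The treatment of reads with several alignments is not given in the sources used here, so the split of reads between both genes is uncertain over all the sequence they share. In Fcgr1, Fcgr4, Fcer1g, Tyrobp, Trem2 and Lgals3 no window was shared with another gene, and in Gpnmb 0.0154% were. Cd9 shared 14.4% of its windows, mostly with Gm26728, a gene whose exons overlap it, and the exons of Fcgr2b overlap those of Gm38204.

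The 250 bases before the start were searched for GAGGAA, the core letters of sites bound by the macrophage factor PU.1, on both strands (the other strand reads TTCCTC). RefSeq promoters (GRCm38.p6) were listed for 9 of the 10 genes, all but Tyrobp. The motif was found in 4 of the 9, Fcgr1, Fcgr3, Fcgr4 and Trem2, and in 23.3% of 32851 promoters of the same length. It was chosen after these sequences were seen. CACGTG, an E-box, was found in 0 of the 9 and in 6.02% of all promoters, and CATGTG, an E-box of the MiT factors, in 1 of the 9 (Cd9) and in 12.3% of all. Neither E-box contains the first motif on either strand or is contained in it. The 100 bases before the start are shown 5′ to 3′ for the 4 genes with the motif, with the motif in capitals. They are the 3 activating receptors, of which Fcgr4 was not called as changed with age, and Trem2. The called genes Fcgr2b, Fcer1g and Gpnmb lacked the motif. Since the motif was picked from these sequences, its spread over the genes cannot show a link to their change.
Fcgr1, chr3:96293970-96294069, minus strand: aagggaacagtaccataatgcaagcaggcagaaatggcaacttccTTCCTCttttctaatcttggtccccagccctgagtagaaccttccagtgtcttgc
Fcgr3, chr1:171059404-171059503, minus strand: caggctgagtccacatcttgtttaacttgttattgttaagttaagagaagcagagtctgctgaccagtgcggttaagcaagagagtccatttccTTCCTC
Fcgr4, chr1:171018826-171018925, plus strand: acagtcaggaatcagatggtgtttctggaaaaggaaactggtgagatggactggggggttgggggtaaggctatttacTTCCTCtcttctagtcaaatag
Trem2, chr17:48346301-48346400, plus strand: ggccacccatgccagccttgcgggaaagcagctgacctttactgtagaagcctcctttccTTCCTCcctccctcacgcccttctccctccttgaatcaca
The motif stood nearest to the start in Fcgr3 and farthest in Fcgr1. The window of Fcgr3 belongs to a start inside the annotated gene, and the last 6 bases of the window of Fcgr4 are exonic in GENCODE. A match describes these letters and was not tested as a binding site.

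The libraries held 19640401 to 22886153 counts on genes, with medians of 21803275 in young and 21810951 in old aortae. Pairs of libraries of the same age had a chi-square of 8.06 to 58.8 per degree of freedom over the genes in 20 pairs, where counting error gives about 1, so no library repeated another. Old replicate 3 stood apart in macrophage genes: the mean level of a panel of 12 macrophage genes was 1228 there, 654 to 772 in the other old aortae and 442 to 614 in the young ones. This level is the geometric mean over the panel, which includes Adgre1, Csf1r, Cd68, Aif1, Mrc1, Cd163, C1qa, C1qb, C1qc, Lyz2 and Ms4a7, in normalized counts (counts divided by the library's size factor). Of the 12 panel genes 7 were higher in old aortae, or 6 without old replicate 3, with the smallest p for Cd68, Ms4a7 and Adgre1. Lyz2, the most abundant, missed the threshold (log2 fold change 0.55, edgeR adjusted p = 0.111). The range of the summed level of all 12 was 9722 to 12710 in young and 13020 to 25360 in old aortae. In bulk RNA, more macrophages and more RNA per macrophage cannot be told apart.

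Among the 10 genes, 7 were higher in old aortae at an adjusted p below 0.05 (edgeR's quasi-likelihood F test, Benjamini-Hochberg over all tested genes) and 0 were lower. They were Fcgr1, Fcgr3, Fcgr2b, Fcer1g, Tyrobp, Trem2 and Gpnmb. Of all genes tested, 6.48% were called higher and 4.99% lower, 11.5% in all. As the 10 genes were chosen with earlier results of these data known, the comparison with these shares is a description and no test. At an unadjusted p below 0.05 only Cd9 was lower, and DESeq2 and limma-voom with sample quality weights called it. The median log2 fold change of the 10 genes was 0.76, against 0.0034 for all tested genes. In 6 of the 10 genes (the 7 without Fcgr2b) every old aorta was above every young one, as in 5.37% of all tested genes, and in 0 of the 10 every old aorta was below, as in 4.55% of all. Without old replicate 3, 6 genes were called higher, and Fcgr2b was the one lost.

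**Figure D1:**
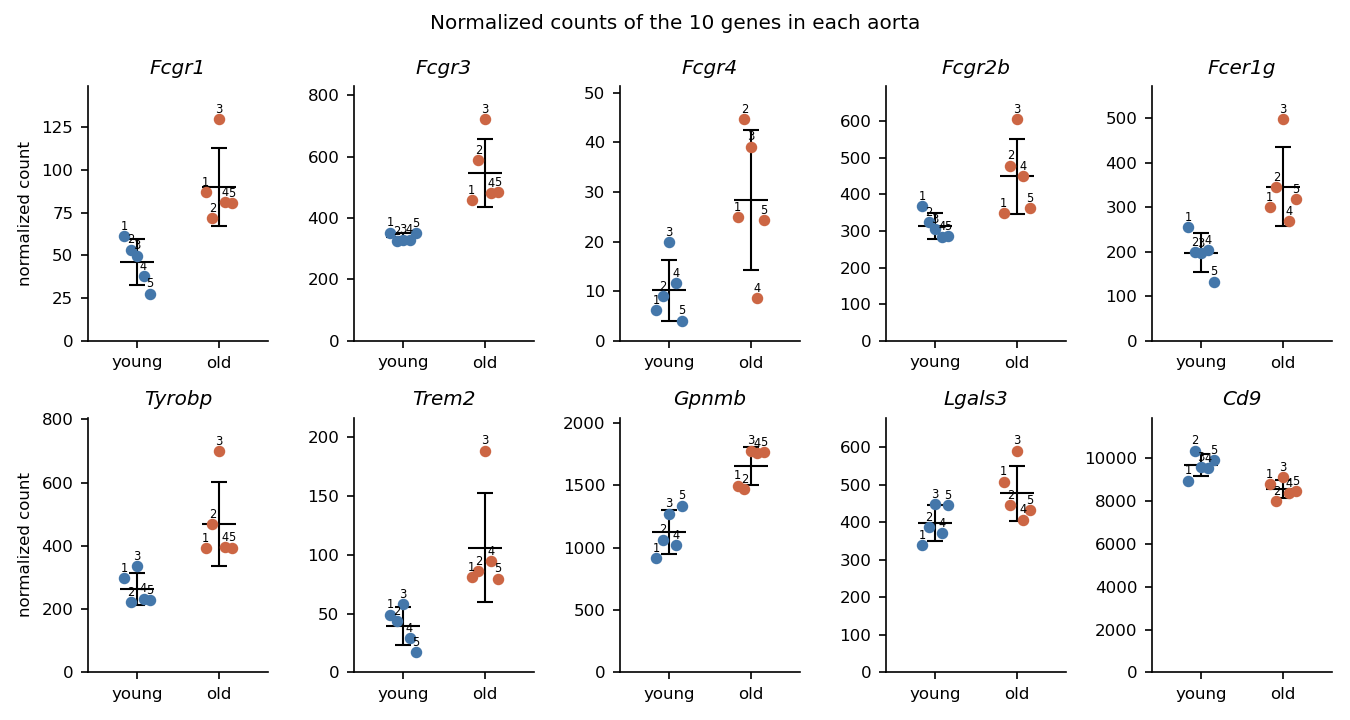
Normalized counts (y axis, from 0) of each gene in the 5 young (blue) and 5 old (orange) aortae, with the replicate number beside each point and the mean and SD in black. Trem2 ran from 17.4 to 57.8 in young and from 79.7 to 188 in old aortae, whereas Cd9 ran from 8959 to 10350 in young and from 8002 to 9121 in old aortae.

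Fcgr3, the low-affinity activating receptor that binds immune complexes, was the activating receptor with the most RNA. Its normalized counts were 353, 325, 330, 329 and 350 in young replicates 1 to 5 and 459, 588, 721, 480 and 484 in old replicates 1 to 5. The young aortae lay within a narrow band (a coefficient of variation of 3.85%), the old ones spread more widely (20.1%), and the groups did not overlap. The mean rose from 338 ± 13 to 547 ± 110 (SD, n = 5 each), giving a log2 change of 0.70 (SE 0.12, 95% interval 0.46 to 0.95, edgeR adjusted p = 0.00186).

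Fcgr1 encodes the high-affinity receptor, which also binds single IgG molecules. It was counted at 61.3, 53.3, 49.9, 37.7 and 27.7 in the young and at 86.9, 71.9, 129.5, 81.0 and 80.7 in the old aortae, so that the lowest old library was above the highest young one. The mean of 46.0 ± 13.3 in young aortae compared with 90.0 ± 22.7 in old ones, giving a log2 change of 0.98 (SE 0.23, interval 0.49 to 1.47, edgeR adjusted p = 0.0142).

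Fcgr4, the receptor for IgG2 subclasses on monocytes, macrophages and neutrophils, was the scarcest of the 10 genes. Over 5 libraries each, 51 reads of young and 142 of old aortae were assigned to it. Its normalized counts were 6.13, 9.06, 19.9, 11.6 and 4.10 in young and 25.0, 44.7, 39.1, 8.68 and 24.3 in old replicates. Old replicate 4 lay among the young aortae, and the other 4 old ones were above all young ones. The log2 fold change of 1.47 had a wide interval (0.48 to 2.45) and missed the threshold in edgeR (adjusted p = 0.0553), while DESeq2 called the gene (adjusted p = 0.0210). In edgeR it passed without old replicate 4 (adjusted p = 0.0193), without young replicate 3 (0.0263) and with no low-count filter (0.0393).

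Fcgr2b, the inhibitory receptor, had a smaller estimated change than the activating receptors, a difference that was not tested, and its groups overlapped. Young replicates 1 to 5 had 368, 324, 304, 285 and 286 normalized counts, and old replicates 1 to 5 had 349, 478, 605, 449 and 363. Old replicates 1 and 5 were below young replicate 1. The means were 313 ± 34.5 and 449 ± 103, and the log2 fold change was 0.53 (SE 0.14, interval 0.22 to 0.83, edgeR adjusted p = 0.0304). This call was lost when any one of 7 libraries was left out (young replicates 2, 3, 4 or 5, or old replicates 2, 3 or 4), with an adjusted p of up to 0.0784. The reads of Fcgr2b and Fcgr3 were also summed, so that their division between both genes no longer mattered. Shared reads that were dropped or counted for both genes are not corrected by this. The summed level was 651 ± 41.0 in young and 995 ± 210 in old aortae, giving a log2 change of 0.62 (SE 0.12, edgeR adjusted p = 0.00614).

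The balance of both kinds of receptor was described without a test, since it is a score over the chosen genes. Per kilobase of main transcript, Fcgr1, Fcgr3 and Fcgr4 together had 2.80 to 3.40 times the level of Fcgr2b in young aortae and 3.11 to 4.01 times in old ones. The medians were 3.26 and 3.71, and old replicate 4, at 3.11, lay within the young range. The size of this ratio depends on the length used. In young aortae Fcgr3 had 250.5 and Fcgr2b 88.4 per kilobase of main transcript, but 194 and 54.1 per kilobase of all annotated exons. It also rests on the uncertain split of reads between Fcgr2b and Fcgr3. Fcgr3 made up 87.5% to 94.9% of the activating receptor RNA in young and 86.4% to 90.3% in old aortae. Fcer1g RNA per activating receptor RNA, also per kilobase, was 0.72 to 1.31 in young and 1.01 to 1.20 in old aortae, so the young range held the old one.

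Both adaptors rose, and the groups of either one did not overlap. Fcer1g had 256, 199, 197, 204 and 133 normalized counts in young replicates 1 to 5 and 300, 345, 498, 269 and 319 in old replicates 1 to 5. Its log2 fold change was 0.82 (SE 0.19, interval 0.41 to 1.22, edgeR adjusted p = 0.0151), from a mean of 198 ± 43.4 to 346 ± 89.2. The distance between the groups was small in this gene, with the highest young library at 256 and the lowest old one at 269. Tyrobp had 298, 221, 336, 234 and 229 normalized counts in young and 393, 470, 701, 395 and 395 in old replicates. Old replicates 1, 4 and 5 lay close together, old replicate 2 was above them and old replicate 3 was the highest. The mean rose from 264 ± 50.6 to 471 ± 133, giving a log2 change of 0.84 (SE 0.18, interval 0.45 to 1.24, edgeR adjusted p = 0.0121).

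Trem2 had the largest change among the called genes. Young replicates 1 to 5 had 49.1, 43.3, 57.8, 29.0 and 17.4 normalized counts, and old replicates 1 to 5 had 81.0, 86.1, 188, 94.5 and 79.7. Every old aorta was above every young one, old replicate 3 was far above the other old ones, and young replicate 5 was the lowest. The mean was 39.3 ± 16.1 in young and 106 ± 46.4 in old aortae, and the log2 fold change was 1.44 (SE 0.33, interval 0.72 to 2.15, edgeR adjusted p = 0.0148). Without old replicate 3 it was 1.12 (adjusted p = 0.0232). RNA of its adaptor exceeded that of Trem2 throughout: per kilobase, Tyrobp had 9.87 to 25.4 times the level of Trem2 in young and 7.18 to 10.5 times in old aortae. The size of this ratio depends on the length used, since the main transcript of Trem2 has 1088 bases and all its annotated exons together 4946.

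Of the 3 foam-cell genes 1 was called, Gpnmb. Gpnmb, a membrane glycoprotein of lysosome-rich cells, had 918, 1065, 1274, 1022 and 1338 normalized counts in young and 1499, 1473, 1778, 1761 and 1767 in old replicates. The groups did not overlap, and old replicate 3 did not stand apart in this gene. The mean rose from 1123 ± 177 to 1656 ± 155, giving a log2 change of 0.57 (SE 0.10, interval 0.35 to 0.79, edgeR adjusted p = 0.00350). Pigment cells also make Gpnmb, and 1 of their 5 markers was tested and rose, Mlana, from 12.8 ± 2.36 to 53.5 ± 13.3 normalized counts (log2 fold change 2.05, SE 0.23, edgeR adjusted p = 0.000165). The summed level of the 5 markers was 16.4 to 24.5 in young and 47.5 to 82.6 in old aortae. On average most of this sum was Mlana, and Pmel had 23 reads in all young and 28 in all old libraries. Of the enzymes that make the pigment, Tyr had 2 reads in all young and 1 in all old libraries, Dct 10 and 0, and Tyrp1 2 and 5. The part of pigment cells in the level of Gpnmb was not tested.

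Lgals3 encodes galectin-3, a sugar-binding protein secreted by macrophages and long used as a macrophage marker. Its normalized counts were 338, 387, 448, 371 and 446 in young and 508, 445, 590, 407 and 433 in old replicates. Old replicates 2, 4 and 5 lay below the higher young aortae. The means of 398 ± 47.8 and 476 ± 73.6 gave a log2 fold change of 0.27 (SE 0.11, interval 0.03 to 0.51), which missed the threshold (edgeR adjusted p = 0.142).

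Cd9, a tetraspanin that organizes receptors in the cell membrane, was the one gene with a lower mean in old aortae. It had 8959, 10350, 9581, 9537 and 9916 normalized counts in young and 8792, 8002, 9121, 8361 and 8467 in old replicates. Old replicate 3 was above young replicate 1, and the other 4 old aortae were below all young ones. The mean was 9668 ± 512 in young and 8549 ± 426 in old aortae, giving a log2 change of -0.17 (SE 0.06, interval -0.30 to -0.04, edgeR adjusted p = 0.0840). The gene passed the threshold with DESeq2 (adjusted p = 0.0191), with limma-voom and sample quality weights (0.0204), and without young replicate 1 (0.0371). Of the markers of the cells that fill the vessel wall, 0 of 6 smooth muscle genes were called in edgeR, DESeq2 or limma-voom, nor were any at an unadjusted p below 0.05 (median log2 fold change -0.11, summed level 765800 to 916800 in young and 702200 to 861300 in old), and Acta2, the most abundant, had -0.16 (edgeR adjusted p = 0.303). Of the 5 endothelial genes 1 was lower, Tek, or 0 without old replicate 3, 4 were lower at an unadjusted p below 0.05, and DESeq2 called 3, limma-voom 3 and limma-voom with quality weights 4 of them lower (median -0.72, summed level 17940 to 31460 in young and 8955 to 20830 in old), and Pecam1, the most abundant, had -0.72 (edgeR adjusted p = 0.0554). Their part in the level of Cd9 was not tested.

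**Figure D2:**
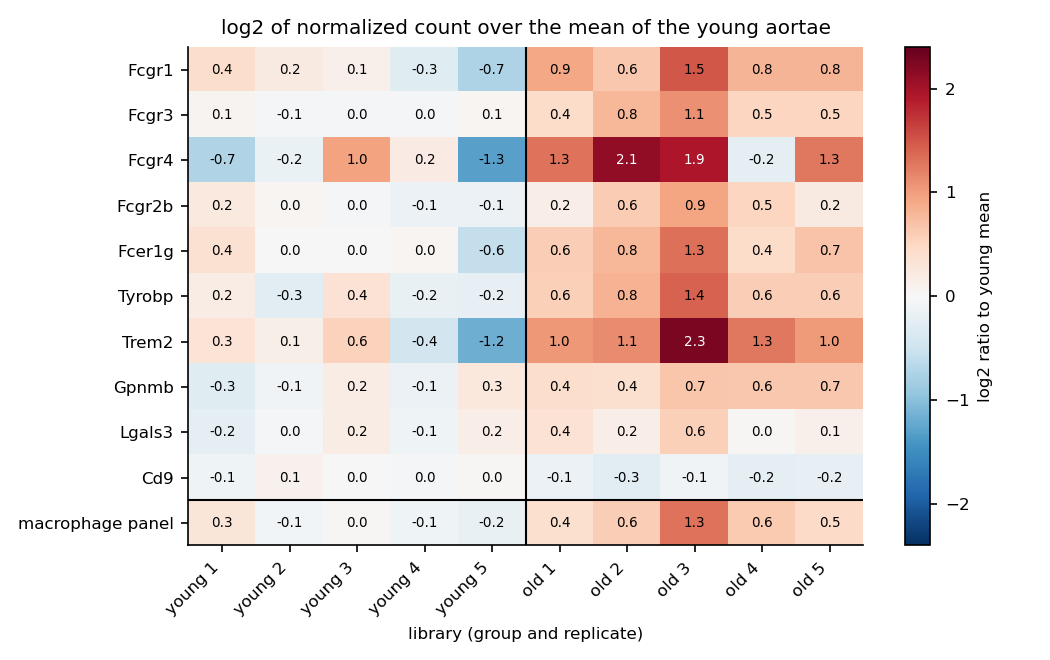
Each gene (rows) in each library (columns), as the log2 ratio of its normalized count to the mean of the young aortae, with the macrophage panel in the bottom row. Old replicate 3 had the highest panel level and the highest value of the old aortae in 9 of the 10 genes (in Fcgr4 old replicate 2 was higher), while the row of Cd9 stays between -0.27 and 0.10.

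Compared per kilobase of main transcript, the 10 genes covered a wide range of levels in the young aorta. Cd9 was far above all others with 7873 normalized counts per kilobase, followed by Tyrobp (467), Gpnmb (304), Fcer1g (294), Lgals3 (281), Fcgr3 (250.5), Fcgr2b (88.4), Trem2 (36.1), Fcgr1 (17.8) and Fcgr4 (8.09). The ranges of neighbouring genes from Gpnmb to Fcgr3 overlapped, as did those of Trem2 and Fcgr1 and of Fcgr1 and Fcgr4. In old aortae Fcer1g (514) stood above Gpnmb (447) and Fcgr3 (406) above Lgals3 (336), again with overlapping ranges. Trem2 had 97.3 in old aortae, and its range overlapped that of Fcgr2b (127). With the length of all annotated exons in place of the main transcript, Trem2 had 7.95 and Fcgr1 17.8 per kilobase in young aortae, so their order depends on the length used. Likewise Fcgr3 (194) then stood above Gpnmb (173).

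**Figure D3:**
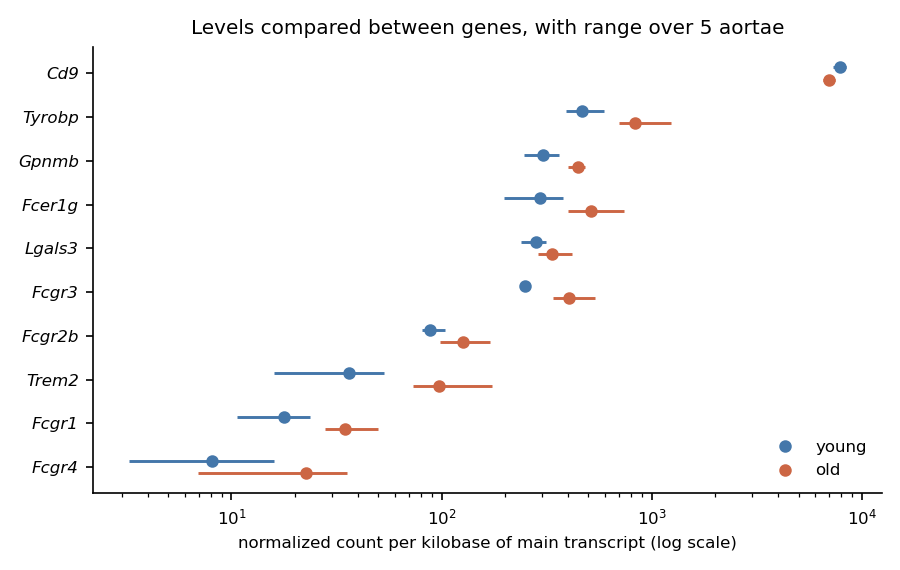
Mean normalized count per kilobase of main transcript (log axis) in young (blue) and old (orange) aortae, with lines from the lowest to the highest of the 5 libraries. Cd9 had 7873 in young and 6961 in old aortae, and Fcgr4 at the bottom had 8.09 and 22.6.

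To see which of these changes went beyond that of macrophage RNA, the libraries were scaled to the macrophage panel, of which none of the 10 genes is a member, and the whole table was fitted again. The panel itself was 501 ± 67.9 in young and 820 ± 233 in old aortae. On this scale 1 of the 10 genes was higher, Trem2, and 2 were lower, Cd9 and Lgals3, against 1.10% of all tested genes higher and 76.6% lower (77.7% in all). The median log2 fold change of all tested genes was -0.67 on this scale, and that of the 10 genes was 0.05. With so many genes called, the Benjamini-Hochberg adjustment was slight, and adjusted p on this scale is close to unadjusted p. The edgeR p of Trem2 was 0.0083 before and 0.0129 after adjustment, and that of Lgals3 was 0.0387 and 0.0498.

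Trem2 rose relative to the panel by a log2 fold change of 0.70 (SE 0.26, interval 0.18 to 1.22, edgeR adjusted p = 0.0129). Per unit of panel level, Trem2 had 0.0799, 0.0910, 0.114, 0.0625 and 0.0394 normalized counts in young and 0.124, 0.114, 0.153, 0.122 and 0.116 in old replicates. Young replicate 3 and old replicate 2 gave the same value to 3 digits, and the other old aortae were above all young ones. The call was lost without young replicate 5, which had the lowest value (log2 fold change 0.54, adjusted p = 0.0797). Without old replicate 3 it was kept at 0.61 (adjusted p = 0.0171). Of the panel genes themselves, Aif1 was also called higher on this scale (0.52, adjusted p = 0.0497), and Ms4a7 was not (0.40, 0.115). A rise beyond the panel was not particular to Trem2, since 161 tested genes were called higher. Among them were Treml2 (1.08, 0.0161), Clec4n (0.76, 0.0236), Blnk (0.69, 0.0231) and Cd209a (1.105, 0.000618), named after their values were seen. Lilra5 (0.33, 0.269), Cd300lb (0.47, 0.166) and Cd300ld (-0.03, 0.892) were not called.

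None of the Fc gamma receptors and neither adaptor was called relative to the panel. Fcgr3 had a log2 fold change of -0.0081 (interval -0.42 to 0.40), Fcgr2b -0.18 (-0.60 to 0.23), Fcgr1 0.28 (-0.23 to 0.80), Fcer1g 0.12 (-0.30 to 0.54) and Tyrobp 0.13 (-0.29 to 0.54). These intervals are wide, and missing the threshold does not show that the genes moved with the panel. Fcgr4 had the largest estimate, 0.76 (interval 0.03 to 1.49, edgeR adjusted p = 0.0532), and passed without young replicate 3 or old replicate 4 and with a panel of Adgre1, Csf1r and Cd68 (0.82, adjusted p = 0.0494). Gpnmb had -0.12 (interval -0.53 to 0.28). Lgals3 had -0.44 (edgeR adjusted p = 0.0498), a call lost in 7 of the 10 fits that left out a library. Cd9 had -0.85 (edgeR adjusted p = 0.000432) and was lower like most tested genes on this scale.

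**Figure D4:**
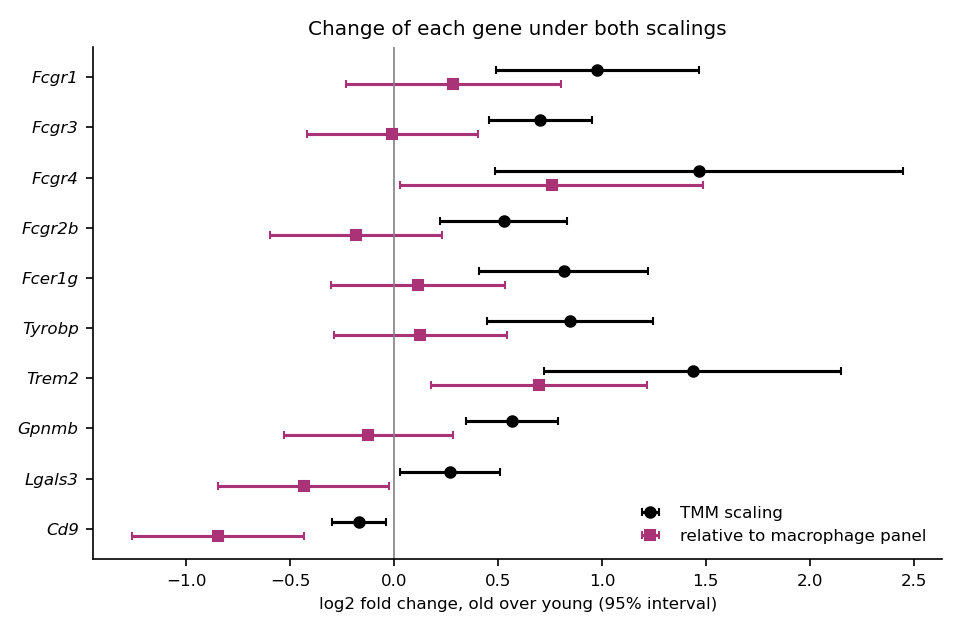
log2 fold change of old over young aortae (x axis) with its 95% interval for each gene, with TMM scaling (black circles) and relative to the macrophage panel (purple squares). With TMM scaling 9 of the 10 estimates lie above 0, and relative to the panel that of Trem2 (0.70) is the one called higher.

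The genes also differed in how closely they followed the panel from library to library, given as the SD over the 10 libraries of the log2 ratio to the panel level. This is a description over libraries that include the age difference. Fcgr2b (0.15), Fcgr3 (0.16), Tyrobp (0.17) and Fcer1g (0.20) kept the most constant ratio. Fcgr1 (0.29), Gpnmb (0.33), Lgals3 (0.36), Cd9 (0.53), Trem2 (0.57) and Fcgr4 (0.89) followed less closely, the last with few reads behind it. Among the 10 genes themselves, the most constant pair was Fcgr2b with Fcgr3 (SD 0.16), which share sequence, followed by Fcgr3 with Tyrobp (0.21), Fcgr1 with Fcer1g (0.22) and Fcer1g with Tyrobp (0.22).

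For each gene, the genes outside the 10 with the most constant ratio to it were sought among 12146 tested genes with a mean of at least 50 normalized counts, by the smallest SD of the log2 ratio over the 10 libraries. Fcgr3 was closest to Tmem106a (SD 0.11) and Camk1d (0.12), and Fcgr2b to F13a1, a resident macrophage gene (0.11), and Nrros (0.11). Fcer1g was closest to Arhgap45 (0.16) and Irf5 (0.17), and Tyrobp to Ctss, a lysosomal protease (0.12), and Coro1a (0.13). Trem2 was closest to Cd84 (0.27) and Ms4a7 (0.32), and Fcgr1 to Ier5l (0.18) and Lilr4b (0.21). The median SD over all candidates was 0.98 for Trem2 and 0.66 for Fcgr1. Gpnmb was closest to Fgf2 (0.11), a growth factor, and Lum (0.12), a collagen-binding protein of fibroblasts. The log2 fold changes of these genes with age, 0.62 and 0.58, were near that of Gpnmb (0.57). All these ratios are taken over both ages, so a like change with age alone can bring genes close. Lgals3 was closest to Magef1 (0.090) and Itih2 (0.095), Cd9 to Ptdss1 (0.034) and Colgalt1 (0.035), and Fcgr4 to Ifit1 (0.59), the widest of these closest genes.

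On the ligand side, of 8 immunoglobulin chain genes 3 had enough reads to be tested and 2 were called higher, or 1 without old replicate 3 and 1 with limma-voom. Ighg2c, the heavy chain of IgG2c, rose from 1.61 ± 2.09 to 63.9 ± 45.8 normalized counts (log2 fold change 5.22, SE 0.79, edgeR adjusted p = 0.00186). Its groups did not overlap, and the young libraries held 8 reads in all. The kappa light chain gene Igkc rose from 44.9 ± 32.8 to 421 ± 365 (log2 fold change 3.24, edgeR adjusted p = 0.0355), with overlapping groups. Ighm, the most abundant, had 337 ± 156 in young and 733 ± 374 in old aortae, also with overlapping groups, and missed the threshold (1.13, 0.120). Of the other Fc receptors 0 of 3 tested genes were called in edgeR (2 at an unadjusted p below 0.05, and 1 with DESeq2, 0 with limma-voom and 2 with its quality weights), and Fcgrt, the neonatal receptor that recycles IgG, had 3832 ± 171 in young and 3820 ± 280 in old aortae.

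Of 9 tested receptors that use Fcer1g or Tyrobp, or are related to those that do, 5 rose, or 3 without old replicate 3, with a median log2 fold change of 0.77. Lilra5 rose by 1.05 (edgeR adjusted p = 0.00569), Cd300lb by 1.22 (0.0201) and Cd300ld by 0.70 (0.0241), and the remaining pair, Clec4n (1.52, 0.0437) and Treml2 (1.74, 0.0467), was named after the values were seen. Trem1 and Trem3 had at most 12 reads in the 5 libraries of either age and were not tested. Downstream of the ITAM, 11 of 29 tested kinases, adaptors and enzymes rose, or 8 without old replicate 3 (median 0.68). They were led by the adaptor Blnk (1.44, edgeR adjusted p = 0.00369), the actin regulator Nckap1l (0.71, 0.00515) and the kinase subunit Pik3r5 (0.89, 0.0115). Plcg1, the most abundant and a phospholipase of many cell types, had 0.12 (0.401). Syk itself, named after its values were seen, had 318 in young and 408 in old aortae (0.37, 0.109).

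On the inhibitory side 6 of 21 tested phosphatases, ITIM receptors and genes listed with them rose, as many as without old replicate 3 (median 0.78). Siglec1, a sialic acid receptor of macrophages that was on the list but has no ITIM itself, rose by 1.11 (edgeR adjusted p = 0.000490). Pirb rose by 0.99 (0.0103) and the adaptor Dok3 by 0.65 (0.0137), whereas Ptpn11, the most abundant, had -0.07 (0.522). Inpp5d, the partner of Fcgr2b, named after its values were seen, had 232 in young and 260 in old aortae (0.17, 0.486). Among 6 genes for ligands of Trem2 and enzymes that shed it from the cell surface, 2 fell, with and without old replicate 3 (median -0.22). At an unadjusted p below 0.05, 1 was higher and 3 were lower, and limma-voom with quality weights called 1 higher and 2 lower. Adam17, a protease that sheds Trem2, had 1205 ± 42.2 in young and 899 ± 81.8 in old aortae, giving a log2 change of -0.41 (edgeR adjusted p = 0.00151), and the groups did not overlap. Clu, a lipoprotein that Trem2 binds, fell by 0.26 on the log2 scale (0.0201). Apoe, another ligand, named after its values were seen, had a higher mean in old aortae and was not called (0.30, 0.159).

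Of 30 other tested genes of lipid-laden macrophages 4 rose, or 2 without old replicate 3, and the median log2 fold change was 0.10. They were Nceh1, a cholesteryl ester hydrolase (0.78, edgeR adjusted p = 0.000829), Ctss (0.98, 0.00584), the scavenger receptor Msr1 (0.66, 0.0337) and Lgals1 (0.36, 0.0356). Spp1, named after its values were seen, had 99.6 ± 113 in young and 735 ± 924 in old aortae, with overlapping groups, and missed the threshold (2.89, 0.0690). Fabp5, also named after its values were seen, missed it in the other direction (-0.75, 0.0509), with every old aorta below every young one. DESeq2 called 4 genes of this list higher and 1 lower, and limma-voom with quality weights called 5 higher and 2 lower. Of 12 MiT transcription factors and lysosome genes, which are known to accompany Gpnmb, 1 rose, the macrophage gene Cd68 (0.83, 0.0155), and Lamp1, the most abundant, had -0.07 (0.556), with a median of 0.03. Of 6 tested galectins and partners of Lgals3, 1 rose, Lgals3bp (0.67, 0.00499), and Mertk, the most abundant, had 0.03 (0.930), with a median of 0.06. Of 14 tested tetraspanins and partners of Cd9, 3 rose, Tspan4 (0.64, 0.0124), Igsf8 (0.28, 0.0175) and Cd82 (0.32, 0.0335), and 2 fell, Ptgfrn (-0.52, 0.00783) and Tspan9 (-0.36, 0.0213), with a median of 0.01. Itgb1, the most abundant of these, had -0.08 (0.572).

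**Figure D5:**
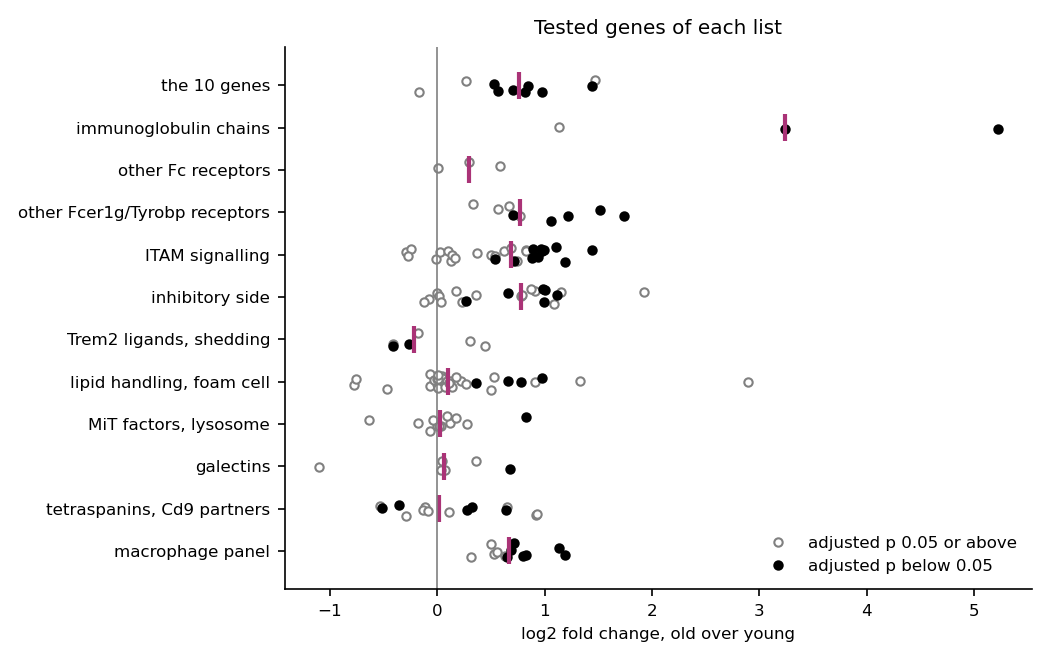
log2 fold change of old over young aortae (x axis) for each tested gene of the 10 genes and of the lists around them, filled where the adjusted p was below 0.05, with the median of each list as a purple bar. The medians of the receptors, ITAM and inhibitory lists (0.77, 0.68 and 0.78) lie close to that of the 10 genes (0.76), and those of the lysosome and tetraspanin lists (0.03 and 0.01) close to 0.

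Other blood cells that carry Fc receptors were looked for by their markers. Of 4 tested monocyte markers 0 were called in edgeR (2 at an unadjusted p below 0.05, and 0 with DESeq2, 0 with limma-voom and 3 with its quality weights), with a median log2 fold change of 1.21 and a summed level of 86.5 to 344 in young and 239 to 710 in old aortae, and Cx3cr1, the most abundant, had a log2 fold change of 1.29 (edgeR adjusted p = 0.113; the later pairs give both in this order). Of 7 neutrophil markers 1 was tested and rose, Csf3r (1.26, edgeR adjusted p = 0.00845), the summed level was 28.0 to 47.0 in young and 56.4 to 194 in old aortae, and the defining marker Ly6g had 0 reads in young and 1 read in old libraries. Of 5 tested mast cell markers 4 rose, Mcpt4 (1.21, 0.0106), Cpa3 (0.95, 0.0217), Tpsb2 (0.92, 0.0240) and, named after its values were seen, Cma1 (0.98, 0.0432), and 1, Kit, fell (-0.90, 0.0427), or 2 and 0 without old replicate 3 (summed level 561 to 1165 in young and 668 to 916 in old). Kit was the most abundant of them, with a mean of 681.9 in young and 362.5 in old aortae, so this sum hides the rise of the other 4. Of resident macrophage markers 2 of 8 rose in edgeR, Maf (0.46, 0.00191) and F13a1 (0.63, 0.0198), and Gas6, the most abundant, had 0.07 (0.640). DESeq2, limma-voom with quality weights and edgeR without old replicate 3 also called 1 of the 8 lower. Cbr2, named after its values were seen, had -0.21 (0.0647) with every old aorta below every young one. Of dendritic cell markers 1 of 2 tested rose, Cd209a (1.76, 0.000756), Zbtb46, the most abundant, had 0.26 (0.149), and their summed level was 402 to 650.2 in young and 611 to 693 in old aortae. Both tested T cell markers rose, Cd4 (1.95, 0.00269) and Cd3g (2.78, 0.0121), and 0 of 3 tested B cell markers were called in edgeR, DESeq2 or limma-voom, nor were any at an unadjusted p below 0.05, and Cd79b, the most abundant, had 1.35 (0.281). None of the 5 NK cell markers had enough reads to be tested. The part of each of these cell types in the levels of the receptors was not tested. Among the remaining cells of the wall, 1 of 5 fibroblast genes rose (Lum) and 1 fell (Pi16), and Dcn, the most abundant, had 0.27 (edgeR adjusted p = 0.0634). Of 6 adipocyte genes 0 were called in edgeR, 4 were lower at an unadjusted p below 0.05, and DESeq2 and limma-voom with quality weights called 1 each, while Adipoq, the most abundant, was not called (edgeR adjusted p = 0.165). Of 4 Schwann cell genes 0 were called in edgeR and DESeq2, 1 was higher at an unadjusted p below 0.05, and limma-voom with quality weights called 2, while Mbp, the most abundant, had 0.44 (edgeR adjusted p = 0.392).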

How the data were processed

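Poly(A) RNA of the aortae of 10 mice was sequenced from stranded libraries. The deposited table holds raw counts per gene, as whole numbers without normalization, which the authors made with fastp 0.20.0, STAR 2.7.0f and featureCounts of Subread 1.6.4 on GRCm38 with a GENCODE annotation. The strand setting of the counting is not given in the sources used here, so reads of overlapping genes may be mixed. The members and gene lists were chosen with earlier results of these data known.

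Groups were taken from the labels. Of 28011 genes with a count, 14614 passed filterByExpr of edgeR 4.0.16. Age groups were then tested by quasi-likelihood in edgeR with TMM scaling and robust dispersions (R 4.3.3), and p was corrected after Benjamini and Hochberg across all tested genes, with a threshold of 0.05. Normalized counts used DESeq2 1.42.0 size factors, and n is 5 mice a group. For the comparison relative to macrophages, the geometric mean of 12 panel genes replaced TMM scaling. Lengths, positions and shared 50-base windows were taken from another GENCODE release of GRCm38. The tests were checked on simulated counts.

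Named beside each list were, of its called genes, the 3 higher and the 2 lower with the smallest p, and its most abundant tested gene. For each of the 10 genes, the 2 genes with the most constant log2 ratio (0.5 added to the counts) were named. A panel gene and a gene close to Fcgr4 are not reported here by name. The alternatives were DESeq2, limma-voom (limma 3.58.1) with and without sample quality weights, other scalings (size factors of DESeq2, upper quartile, library size alone), no filter on low counts, a minimum mean count of 10, the replicate number as a block, a threshold of 0.01, smaller panels and the omission of each library. The sum of Fcgr2b and Fcgr3 was added after seeing the data. Depth was 19640401 to 22886153 counts per library.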

Additional observations from a re-analysis of the deposited data

Results flagged for a closer look

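Of 20 groups of 5 libraries examined (10 genes at 2 ages), 3 held a library far from the others by Dixon's criterion at the 95% level, which chance passes in about 1 of 20 groups. All 3 were old replicate 3. Fcgr1 had 129.5 normalized counts there, with 86.9 in the next old aorta. Tyrobp had 700.9, with 469.7 in the next, and Trem2 had 188.3, with 94.5 in the next. The same library had the highest level of the macrophage panel (1228, with 772 in the next). The libraries are not independent across genes, and the 3 genes were called without this library too.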

How the results depend on the processing

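The number of genes called higher was 7 and stayed between 6 and 8 under all alternatives but a threshold of 0.01, where it was 2 (Fcgr3 and Gpnmb). It was 6 to 7 when each library was left out. The number called lower was 0, and it was 1 (Cd9) with DESeq2, with limma-voom and sample quality weights, and without young replicate 1 (range 0 to 1 over the omitted libraries). Among all genes, 1676 were called, 2643 with sample quality weights, 658 at a threshold of 0.01 and 1132 to 2367 with each library omitted. Relative to the panel, the number higher was 1, with 2 for a panel of Adgre1, Csf1r and Cd68 and 0 to 2 over the omitted libraries. The number lower was 2, with 1 for this smaller panel, 1 with the replicate number as a block and 1 to 2 over the omitted libraries. The direction changed in 1 gene: Fcgr3 relative to the panel (-0.0081) became 0.0292 with the smaller panel, 0.0074 and 0.0511 without young replicates 4 and 5, and 0.0407 and 0.0215 without old replicates 3 and 4, all far from the threshold (range over the omitted libraries -0.065 to 0.051). Every other log2 fold change kept its sign.

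Libraries of both ages carry numbers 1 to 5. The deviations of same-numbered libraries from their group means correlated at -0.29 to 0.13, and 2 of 5 numbers correlated best with their own. Whether same-numbered libraries share a batch cannot be told from so few values. With the replicate block in edgeR 6 genes were called higher, and Fcgr2b was the one lost (adjusted p = 0.0550), and 1261 genes were called in all. The adjusted p became smaller for Tyrobp (0.00232), Trem2 (0.00500) and Gpnmb (0.00192). It became larger for Fcgr1 (0.0196), Fcgr3 (0.00668) and Fcer1g (0.0224). Fcgr4 had the fewest reads (51 in young and 142 in old libraries) and coefficients of variation of 60.6% and 49.8%, and the part of depth in its missed call was not tested.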
